A study of Mus musculus with 6 samples.

Results

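Annexins, S100 proteins and galectins were followed in mouse kidneys in which Notch1 signalling had been switched on in the tubule. The genes were taken by symbol: those starting with Anxa, S100a or Lgals, and S100b. This gave 37 of the 19937 genes measured, made up of 12 annexins, 15 S100 genes and 10 genes with a galectin symbol. The last group includes Lgals3bp, a secreted glycoprotein that binds galectins and is not itself a galectin, and Lgalsl, a galectin-related protein that lacks sugar binding. Whole kidneys of 3 littermate controls, labelled wild type, were compared with 3 NICD1 kidneys carrying the transgenes Pax8rtTA and TREICNotch1. In this system a tetracycline-dependent activator is made where the Pax8 promoter is active, which in the kidney is the tubule epithelium, and turns on a transgene for the cleaved inner part of Notch1, which signals without ligand. Age, inducing agent and time since induction are not given in the sources used here. Each RNA sample had its own Affymetrix array, and nothing in the labels says whether the 3 samples of a group came from separate animals, so p-values measure the spread between these samples.

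Annexins bind acidic phospholipids in the presence of calcium and gather at membranes that are bent, fused or torn. S100 proteins are small calcium sensors of the EF-hand type that mostly work as dimers, and several of them bind a particular annexin: S100a10 binds Anxa2, and S100a11 binds Anxa1. Galectins bind beta-galactoside sugars on glycoproteins, outside the cell at its surface and inside the cell on damaged vesicles. Members of all these families are known from injured or regenerating epithelium and from macrophages, and most of those that leave the cell do so without a signal peptide.

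The transgene label was checked first. Notch1 stood at 6.65, 6.59 and 6.45 (log2 expression) in controls and at 10.29, 10.30 and 9.99 in NICD1 kidneys, so the groups did not overlap. The labelled tissue was also checked: 8 proximal tubule markers averaged 11.10 to 11.15 on the control arrays but 6.68 to 7.87 on the NICD1 arrays, and all 8 fell. Correlations between arrays across genes were 0.991 to 0.994 within controls, 0.985 to 0.990 within NICD1 and 0.912 to 0.935 between the groups. All values below are the authors' log2 expression values. A difference is NICD1 minus control, with a standard error (SE) and an adjusted p from limma, and a gene is said to have risen or fallen where that p was under 0.05. Precision is limited by the 3 arrays of each group, and no detection calls were used here, so for a dim gene it is not known whether any transcript was detected. In whole-kidney RNA a change in the number of cells that express a gene and a change in RNA per cell cannot be told apart.

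Of the 37 members, 17 rose, 2 fell and 18 did not pass the test. The share that rose was 45.9%, against 17.8% of all genes tested, and the share that fell was 5.41%, against 14.9%. The rise was at least 2-fold in 9 members, and 4.65% of all genes rose by that much. Of the annexins 7 rose and 0 fell in limma's test (1, Anxa7, was lower at an unadjusted p under 0.05), of the S100 genes 5 rose and 1 fell, and of the galectin symbols 5 rose and 1 fell. The median difference was 0.16 over the members and 0.015 over all genes. By family it was 0.73 for annexins, 0.073 for S100 genes and 0.46 for galectin symbols. All 3 NICD1 arrays lay above all 3 control arrays in 17 members, and below them in 3, where 23.7% and 19.7% of all genes did so. After each array was centred on its median, 14 members rose and 3 fell, while 13.0% of all genes rose and 20.0% fell. The median difference over all genes stood at -0.11 after centring.

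**Figure D1:**
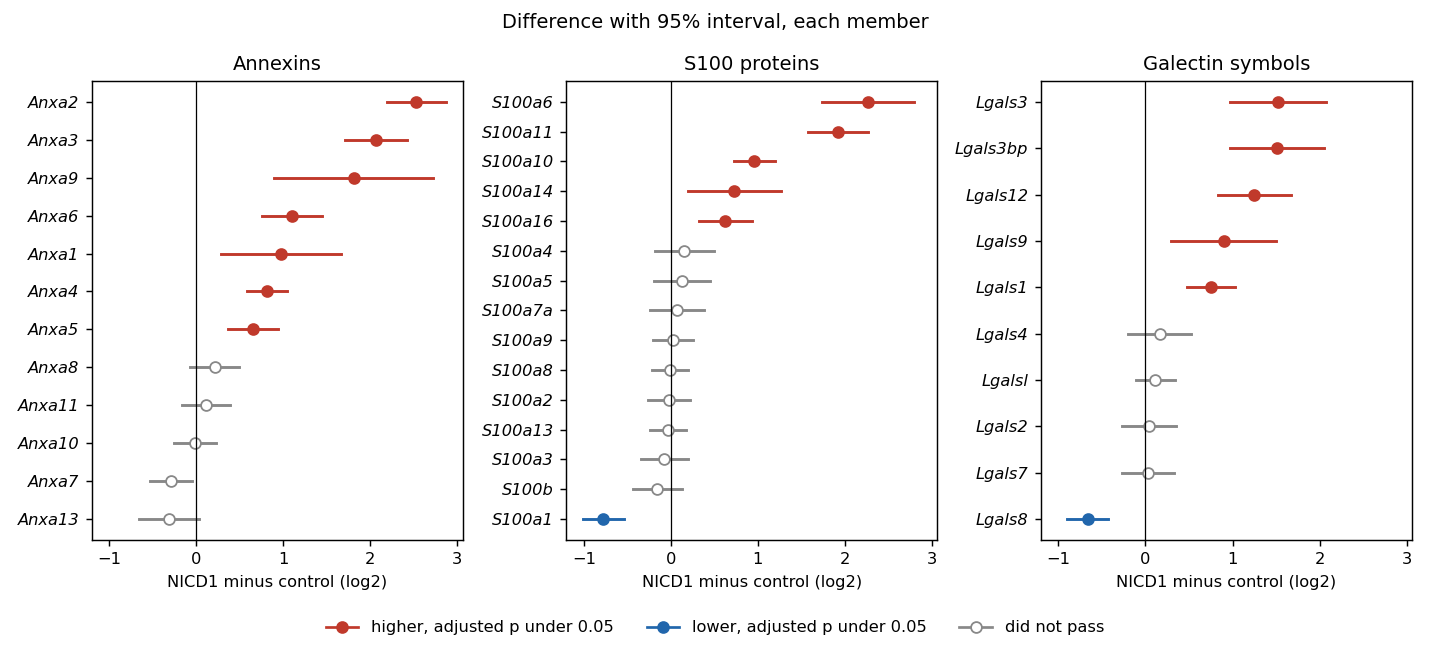
Difference between NICD1 and control kidneys (horizontal axis, log2) for each of the 37 members, by family; points are the limma estimates, lines their 95% intervals, and filled points passed an adjusted p of 0.05. Annexins range from -0.31 (Anxa13) to 2.53 (Anxa2), S100 genes from -0.77 (S100a1) to 2.26 (S100a6) and galectin symbols from -0.66 (Lgals8) to 1.52 (Lgals3).

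The bases upstream of the members that rose most in each family are shown here, because these are the sequences next to the transcripts with the largest changes; S100a11 was added after its values were seen, for its pair of matches. RefSeq promoter windows (GRCm38.p6) were matched by symbol for 29 of the 37 members, in 36 windows. Any member window on 1 further chromosome was left out, while the count over all windows kept that chromosome. This removed no member. The members without a window were mostly members that rose: Anxa3, Anxa6, S100a10, S100a14, Lgals1 and Lgals12, besides Anxa13 and S100a2, which did not pass. The 250 bases before each start were searched on both strands for TGGGAA, the core bound by RBPJ, the DNA-binding partner of Notch, and for TGANTCA, bound by AP-1. The windows printed are chr9:69453433-69453682 for Anxa2, chr3:90612644-90612893 for S100a6, chr3:93520246-93520495 for S100a11 and chr14:47373610-47373859 for Lgals3, all on the plus strand and written 5′ to 3′ up to the base before the start. Capitals mark every match to either motif, on either strand.
Anxa2: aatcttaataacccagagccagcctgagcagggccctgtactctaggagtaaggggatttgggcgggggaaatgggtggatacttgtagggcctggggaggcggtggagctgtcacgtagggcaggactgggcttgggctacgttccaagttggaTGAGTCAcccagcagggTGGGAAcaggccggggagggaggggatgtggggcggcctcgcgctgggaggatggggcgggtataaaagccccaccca
S100a6: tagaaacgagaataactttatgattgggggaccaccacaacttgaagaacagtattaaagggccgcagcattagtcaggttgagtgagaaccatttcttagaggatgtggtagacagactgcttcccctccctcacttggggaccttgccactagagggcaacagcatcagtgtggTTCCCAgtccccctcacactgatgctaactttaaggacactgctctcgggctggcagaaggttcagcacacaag
S100a11: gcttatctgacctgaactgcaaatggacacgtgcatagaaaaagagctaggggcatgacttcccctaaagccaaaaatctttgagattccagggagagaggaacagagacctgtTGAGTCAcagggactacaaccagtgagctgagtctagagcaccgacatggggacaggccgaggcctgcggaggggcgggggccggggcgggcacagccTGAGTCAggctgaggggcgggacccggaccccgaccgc
Lgals3: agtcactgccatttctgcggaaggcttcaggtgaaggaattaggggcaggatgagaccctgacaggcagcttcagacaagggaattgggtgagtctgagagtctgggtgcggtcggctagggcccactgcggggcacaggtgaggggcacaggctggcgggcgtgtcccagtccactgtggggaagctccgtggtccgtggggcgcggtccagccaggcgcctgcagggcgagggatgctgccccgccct
The Anxa2 window holds 1 match to each motif, beginning 78 bases (TGGGAA) and 95 bases (TGANTCA) before the start. S100a6 holds 1 TGGGAA match on the opposite strand, beginning 74 bases before the start. S100a11 holds 2 TGANTCA matches, 136 and 38 bases before the start, and Lgals3 holds neither motif. Over the families, TGGGAA occurred in 3 of 14 windows of members that rose (21.43%) and in 4 of the other 22 (18.18%), against 21.59% of all 32851 windows. TGANTCA occurred in 3 of 14 (21.43%) and 1 of 22 (4.55%), against 6.75% of all windows. A loose outline of the NF-kB site (GGG and CC with any 5 bases between them) was in 10 of 14 and 9 of 22 windows (45.8% of all), and the E-box CANNTG in 10 of 14 and 14 of 22 (66.22% of all); matches of different motifs may overlap. These are matches of letters in short windows, not binding sites, and several members have more than 1 window.

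Among the annexins, Anxa2 showed the largest rise. Anxa2, which forms a tetramer with S100a10 on the inner face of the plasma membrane and binds plasminogen outside it, stood at 6.18, 6.07 and 6.10 in controls and at 8.91, 8.73 and 8.30 in NICD1 kidneys. Every NICD1 value lay more than 2 log2 units above every control value. The difference was 2.53 (SE 0.15), a 5.77-fold rise with an adjusted p of 3.30e-06 by limma. It ranked 90 from the top among all genes ordered by difference.

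Anxa3, an annexin found in epithelia and in neutrophil granules, was measured at 5.74, 5.59 and 5.90 in controls and at 8.09, 7.83 and 7.49 in NICD1. Its groups did not overlap, and the rise was 4.18-fold (2.06 log2, SE 0.16, limma adjusted p = 1.13e-05). Anxa9, an atypical annexin that has lost the calcium-binding sites of its repeats, went from 4.41, 4.66 and 4.90 to 7.62, 5.80 and 5.99. NICD1 replicate 1 stood far above the other two, and the SD was 1.001 in NICD1 against 0.25 in controls. The rise was 3.51-fold (1.81 log2, SE 0.40, limma adjusted p = 0.00700), and 1.24 log2 without NICD1 replicate 1.

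Anxa6, built from a duplicated annexin core and linked to membrane repair and cholesterol transport, went from 7.73, 7.40 and 7.41 to 8.65, 8.84 and 8.33 (1.10 log2, SE 0.15, limma adjusted p = 0.000453). Anxa6 had a second, dimmer probe set on which the difference was 0.28, and the mean of both gave 0.69. The size of its rise therefore differs between probe sets, while the direction was the same on both. Anxa4, found at the apical membrane of secretory epithelia, stood at 7.26, 7.29 and 7.34 in controls and at 8.25, 8.06 and 8.03 in NICD1 (0.82 log2, SE 0.10, adjusted p = 0.000251). Anxa5, the phosphatidylserine-binding protein used to stain dying cells, went from 8.28, 7.95 and 8.08 to 8.93, 8.59 and 8.75 (0.65 log2, SE 0.13, adjusted p = 0.00337). Both were tight within groups, and neither overlapped between groups.

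Anxa1, the glucocorticoid-induced annexin that dampens inflammation through formyl peptide receptors, was uneven among the NICD1 kidneys. It stood at 6.10, 5.98 and 6.41 in controls and at 7.91, 7.06 and 6.46 in NICD1. NICD1 replicate 3 was thus barely above the highest control. The difference was 0.98 (SE 0.30, limma adjusted p = 0.0345), and 0.60 without NICD1 replicate 1. Anxa1 no longer passed when control replicate 1 (0.95), 2 (0.89) or 3 (1.10) or NICD1 replicate 2 (1.02) was left out, after centring (0.86), and with a trended and robust variance model (0.98, adjusted p = 0.0773).

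The other 5 annexins did not pass. Anxa7, which takes part in calcium-driven membrane fusion, stood at 6.76, 6.83 and 7.04 in controls and at 6.56, 6.63 and 6.59 in NICD1. The groups did not overlap, yet the difference of -0.29 missed the threshold (95% interval -0.53 to -0.04, adjusted p = 0.0712); it passed under quantile normalization (-0.30) and after centring (-0.41). Anxa13, an epithelial annexin of kidney and gut, differed by -0.31 (95% interval -0.66 to 0.03), and passed with array weights (-0.43) and without control replicate 1 (-0.46). Anxa11, which links RNA granules to lysosomes, differed by 0.11 (95% interval -0.16 to 0.39). Anxa8 and the stomach annexin Anxa10 were dim, with means of 3.73 and 3.94 for Anxa8 and 2.77 and 2.76 for Anxa10 in controls and NICD1, under the median of every array.

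**Figure D2:**
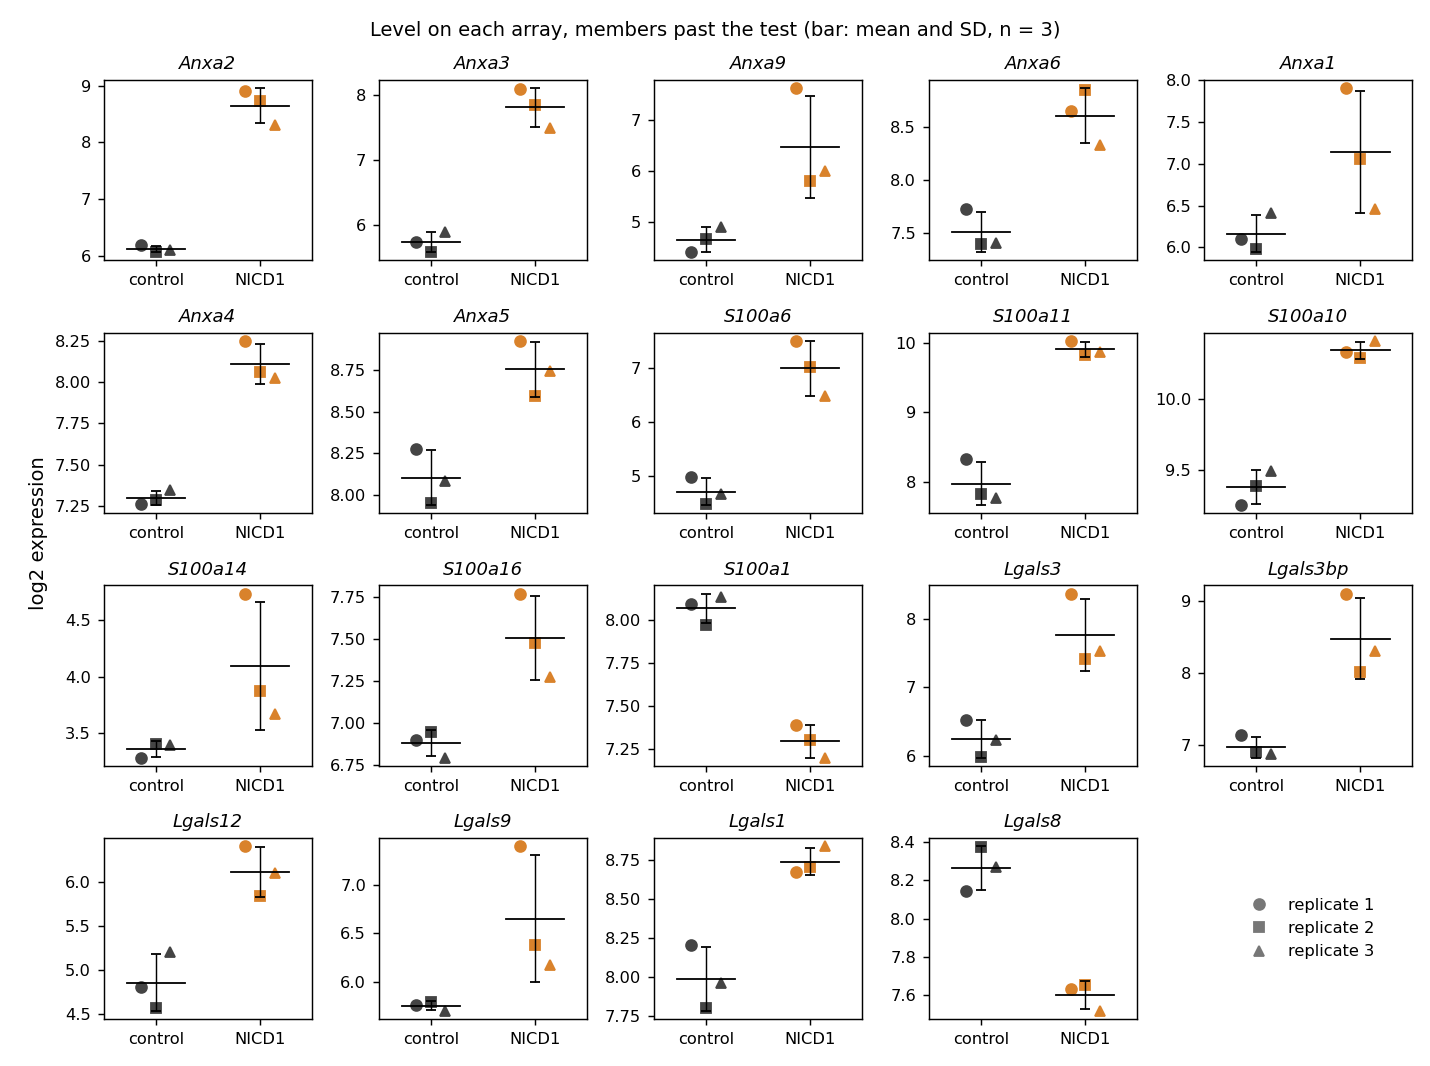
Log2 expression (vertical axis, scaled separately for each gene and not starting at 0) on each of the 6 arrays for the 19 members that passed the test; symbols give the replicate number, bars the mean and SD of 3 arrays. In all 19 panels the groups are apart, and NICD1 replicate 1 is the highest array for 14 of the 17 members that rose.

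NICD1 replicate 1 was the array with the highest value in 14 of the 17 risen members (82.4%). Among all 3551 genes that rose it was the highest in 2012 (56.7%). The same array had the highest mean of the macrophage markers, 7.10 against 6.46 and 6.29 on the other NICD1 arrays. It was also highest for the simple epithelial markers, 9.20 against 8.88 and 8.67, and lowest for the proximal tubule markers. Lists that were lower in NICD1 than in controls peaked there too, such as collecting duct (6.66 against 6.00 and 6.28) and endothelium (6.40 against 6.26 and 5.43). The fibroblast list was highest on NICD1 replicate 2, at 7.29 against 7.21 on replicate 1. Without NICD1 replicate 1, 17 members rose and 2 fell.

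The S100 genes divided into a few strong rises and a majority at a low, even level. S100a6, or calcyclin, a protein of dividing and injured cells, stood at 4.99, 4.50 and 4.68 in controls and at 7.48, 7.01 and 6.47 in NICD1. The groups were well apart, and the rise was 4.80-fold (2.26 log2, SE 0.23, limma adjusted p = 7.19e-05). S100a11, the partner of Anxa1, went from 8.33, 7.84 and 7.78 to 10.02, 9.82 and 9.86, a 3.79-fold rise (1.92 log2, SE 0.15, limma adjusted p = 1.50e-05). A second S100a11 probe set gave 1.79, although RefSeq also lists a pseudogene, S100a11-ps, with which probes may share sequence. S100a10, also called p11, the calcium-independent partner of Anxa2, stood at 9.26, 9.39 and 9.50 in controls and at 10.33, 10.29 and 10.41 in NICD1 (0.96 log2, SE 0.10, adjusted p = 9.70e-05).

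The epithelial S100 gene S100a16 went from 6.90, 6.95 and 6.79 to 7.77, 7.48 and 7.27 (0.62 log2, SE 0.13, limma adjusted p = 0.00584). S100a14, another epithelial member, stood at 3.28, 3.41 and 3.40 in controls and at 4.74, 3.87 and 3.68 in NICD1 (0.73 log2, SE 0.24, adjusted p = 0.0398). S100a14 was dim in both groups, with means below all array medians, and leaving out NICD1 replicate 1 gave 0.41. Its call was lost without any of the control arrays (0.69, 0.75 and 0.75 without replicates 1, 2 and 3), under quantile normalization (0.70), after centring (0.61) and with a trended and robust variance model. S100a1, known best as a regulator of calcium cycling in muscle, was the S100 member that fell. It stood at 8.10, 7.97 and 8.14 in controls and at 7.39, 7.30 and 7.20 in NICD1 (-0.77 log2, SE 0.10, limma adjusted p = 0.000350). Spread within each group was small beside this gap.

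S100a8 and S100a9, which together form calprotectin, the abundant calcium- and zinc-binding protein of neutrophils and monocytes, did not pass. S100a8 stood at 3.11, 3.03 and 3.04 in controls and at 3.08, 3.003 and 3.06 in NICD1, and S100a9 at 3.98, 3.98 and 4.02 against 3.91, 4.14 and 4.02. All these values were under the median of every array. The 95% intervals of the differences, -0.22 to 0.20 for S100a8 and -0.20 to 0.26 for S100a9, cover changes of either sign. Of 12 neutrophil markers, 2 rose (Csf3r and Mmp9, by 0.39 and 0.51), 0 fell, and all 12 were likewise under the array medians. Averaged over the list, the control arrays ran from 3.55 to 3.64 and the NICD1 arrays from 3.65 to 3.801. The groups did not overlap, but array medians over all genes were also higher in NICD1, 5.38 to 5.41 against 5.26 to 5.29. The list means were not corrected for array medians. Gene by gene, the median difference was 0.0996 over this list. It was 0.015 over all genes tested and 0.0083 over all genes under the array medians. The share of the list that rose was 16.7%, against 17.8% of all genes tested and 6.15% of all genes under the array medians.

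S100a4, a gene of fibroblasts and myeloid cells, stood at 3.44, 3.94 and 3.77 in controls and at 3.999, 3.67 and 3.95 in NICD1 (0.16, 95% interval -0.18 to 0.49). S100a13, which helps export fibroblast growth factor, was the most even member: its values ran from 6.20 to 6.27 over all 6 arrays (difference -0.03, 95% interval -0.23 to 0.18). S100a2, S100a3, S100a5, S100a7a and S100b, the last best known from glia, differed by -0.02, -0.08, 0.13, 0.07 and -0.15. All of these had means under every array's median. In all, 14 members had both means there, 9 of them S100 genes, and 13 of the 14 did not pass. Of all 19937 genes tested, 9231 had both means there, and 8389 of these did not pass. The share that rose was 7.14% of the 14 dim members and 6.15% of all such dim genes. RMA values compress differences near this floor, so a change in these genes would be understated.

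All the S100a members sit on chromosome 3 in RefSeq's mouse annotation (GRCm38.p6), and calls there differed between neighbours. S100a1, which fell, is followed by S100a13, which did not pass. Their starts lie 105 bases apart on opposite strands, and their promoter windows overlap by 204 bases. Next come S100a14 and S100a16, which rose, and then S100a3, S100a2, S100a4 and S100a5, of which none passed. S100a6 follows, with a 95% interval of 1.74 to 2.79 against -0.19 to 0.45 for its neighbour S100a5 and -0.24 to 0.39 for S100a7a on the other side. S100a8 and S100a9 come next. S100a11, S100a10 and Anxa9, which lie further along, all rose. Differences between neighbours were not tested themselves.

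**Figure D3:**
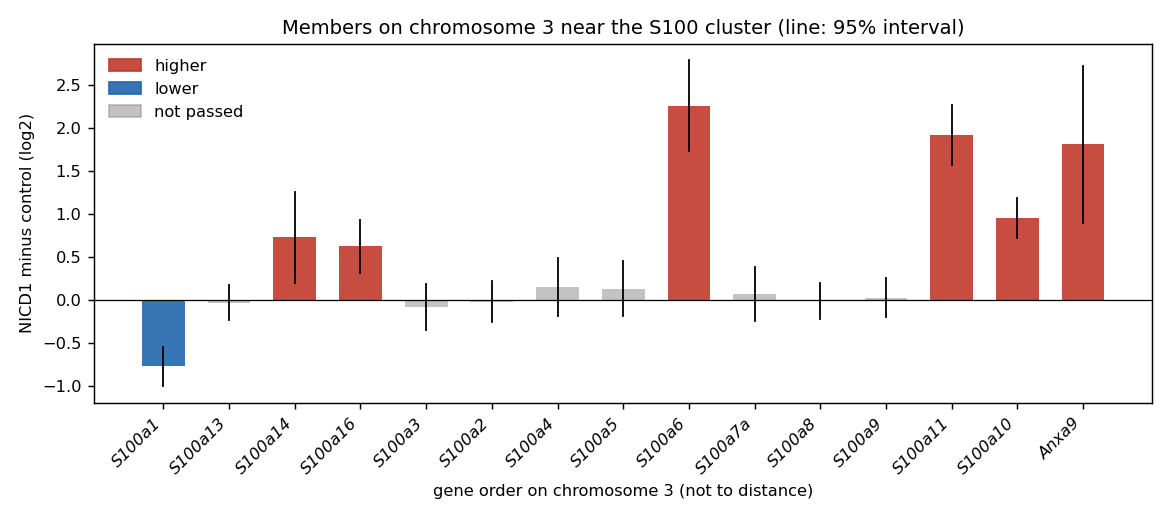
Difference between NICD1 and control kidneys (vertical axis, log2) for the 14 S100a members and Anxa9 in their order along chromosome 3, with 95% intervals; the horizontal axis gives gene order and not distance. S100a6 (2.26) stands between S100a5 (0.13) and S100a7a (0.07), and S100a1 (-0.77) stands beside S100a13 (-0.03).

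Members that form complexes together were also compared within arrays. Anxa2 rose by 2.53 and its partner S100a10 by 0.96, so their log2 difference within an array changed by 1.57, with no overlap between the groups. An exact two-sided permutation test over the 6 arrays gave p = 0.10, which is the smallest that 3 against 3 arrays allow, and 0.30 after adjustment over the 3 pairs compared. For Anxa1 and S100a11 the change was -0.94 (exact permutation p = 0.20, adjusted 0.30), and for S100a8 and S100a9 it was -0.04 (exact permutation p = 0.80). None of these passed. Under quantile normalization Anxa2 rose by 2.64 and S100a10 by 1.36, so the size of their gap depended on the normalization. The pair tests were not repeated there.

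Among the galectin symbols, Lgals3 and its binding protein rose most. Lgals3, a galectin with a collagen-like tail that is made by macrophages and by injured or ductal epithelium, stood at 6.53, 5.98 and 6.22 in controls and at 8.37, 7.41 and 7.52 in NICD1. The groups did not overlap, and the rise was 2.87-fold (1.52 log2, SE 0.24, limma adjusted p = 0.00106). Lgals3bp went from 7.13, 6.89 and 6.87 to 9.10, 8.02 and 8.31, a 2.85-fold rise (1.51 log2, SE 0.24, adjusted p = 0.00102). Both genes were highest in NICD1 replicate 1, and without it they differed by 1.22 and 1.20.

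Lgals12, a galectin known mainly from fat cells, stood at 4.81, 4.57 and 5.20 in controls and at 6.40, 5.84 and 6.10 in NICD1 (1.25 log2, SE 0.19, limma adjusted p = 0.000690). Of 5 adipocyte markers, 0 rose and 0 fell by limma, also at an unadjusted p under 0.05, and all 5, Adipoq and Plin1 among them, were under the array medians. As a list they averaged 4.07 to 4.67 on control arrays and 4.14 to 4.42 on NICD1 arrays. Lgals1, a dimeric galectin of stroma and vessels, went from 8.21, 7.80 and 7.96 to 8.68, 8.71 and 8.84 (0.75 log2, SE 0.12, adjusted p = 0.00126), although RefSeq lists a pseudogene, Lgals1-ps1, with which probes may share sequence. It was among the few risen members with the highest value in NICD1 replicate 3.

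Lgals9, an interferon-inducible galectin with a pair of sugar-binding domains, stood at 5.76, 5.79 and 5.70 in controls and at 7.40, 6.38 and 6.17 in NICD1 (0.90 log2, SE 0.27, limma adjusted p = 0.0286). The spread was an SD of 0.66 in NICD1 against 0.05 in controls. Without NICD1 replicate 1 the difference was 0.52, and the call was lost without control replicate 1 (0.90), 2 (0.92) or 3 (0.87) and after centring (0.78). Lgals8, which has the same two-domain form and marks damaged vesicles for autophagy, moved the other way. It stood at 8.15, 8.37 and 8.27 in controls and at 7.63, 7.65 and 7.52 in NICD1 (-0.66 log2, SE 0.10, limma adjusted p = 0.000949). All NICD1 values lay below all controls.

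The remaining galectin symbols did not pass. Lgalsl stood between 7.29 and 7.54 on all arrays (difference 0.11, 95% interval -0.11 to 0.34). Lgals4 of the gut, Lgals7 of stratified epithelium and Lgals2 differed by 0.16, 0.03 and 0.04, and all had means under every array's median. Mouse Lgals4 has a close copy in some strains, Lgals6, so its single value is uncertain.

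Genes that work with the annexins rose where they passed. For this and the other gene lists below, a count of 0 in limma's test was also 0 at an unadjusted p under 0.05, except that 1 membrane repair gene and 1 fibroblast marker were lower at that level. The counts are to be read beside all genes tested, of which 17.8% rose and 14.9% fell. Among all genes not under the array medians, 27.9% rose and 25.3% fell. Of 12 membrane repair genes and annexin partners, 7 rose and 0 fell (median 0.42). Myof, or myoferlin, rose from 6.08 ± 0.32 to 8.92 ± 0.21 (SD, n = 3), a difference of 2.84, the scaffold Ahnak, which binds the Anxa2 and S100a10 complex, rose by 1.57, and the membrane repair protein Dysf by 1.14. Of 6 measured genes of plasminogen activation at the cell surface, 3 rose and 0 fell (median 0.29). Plat, or tissue plasminogen activator, rose from 6.29 ± 0.31 to 8.60 ± 0.31, a difference of 2.31, the urokinase receptor Plaur by 1.12 and urokinase Plau by 0.59. Plasminogen itself (Plg) stood at 3.59 in both groups, under the array medians, so it is not known whether any transcript was detected. The formyl peptide receptors that bind Anxa1 were not analysed here.

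Partners of the S100 proteins were mixed. Of 10 receptors and binding partners, 3 rose and 1 fell (median 0.13), or 30% and 10%. Of all genes tested 17.8% rose and 14.9% fell, and of those not under the array medians 27.9% and 25.3%. Only 1 of the 10 genes, Tlr4, was under the array medians. The non-muscle myosin Myh9 rose by 1.504 and the receptor Tlr4 by 0.91, while the scavenger receptor Cd36, also a fatty acid carrier of the tubule, fell from 10.50 ± 0.34 to 5.30 ± 0.23. Tlr4 was uneven, at 5.23, 4.59 and 3.96 in NICD1 against 3.57, 3.85 and 3.64 in controls. The receptor Ager differed by 0.22 (adjusted p = 0.273). Of 8 measured genes of S100 type outside the symbols used, 0 rose and 1 fell. That gene was S100g, the calcium carrier calbindin-D9k of the distal tubule, at 9.88, 8.99 and 9.54 in controls and 6.44, 6.29 and 6.74 in NICD1 (-2.98 log2, SE 0.21, limma adjusted p = 7.95e-06). The epidermal genes Tchh and Hrnr differed by -0.47 and -0.31 without passing.

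On the galectin side, the enzymes that branch and cap N-glycans moved both ways, with 3 of 10 higher and 3 lower (median -0.03). These shares, 30% and 30%, were near those of all genes not under the array medians, 27.9% and 25.3%. St6gal1, which adds a sialic acid that blocks some galectins, rose from 5.17 ± 0.14 to 7.17 ± 0.40. Mgat3 and Mgat1 fell by 1.45 and 0.76, and Mgat5, which makes the branch that galectin-3 favours, differed by -0.10 (adjusted p = 0.649). Of 9 glycoproteins known to bind galectins, 6 rose and 3 fell (median 0.67). Cd44 rose by 3.67, fibronectin (Fn1) by 2.84 and the laminin chain Lamc1 by 1.75, and the fallen were Tfrc, Lamp2 and Lamp1. Lamp1 and Lamp2 are lysosomal membrane proteins, and Tfrc takes up transferrin.

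Markers of several cell types also differed between the groups, some higher and some lower in NICD1. Of 13 macrophage and monocyte markers, 12 rose, 0 fell and Csf1r did not pass (median 2.21); their mean was 4.69 to 4.84 on control arrays and 6.29 to 7.10 on NICD1 arrays, and Adgre1 and Ccr2 were under the array medians in both groups. Of 6 simple epithelial markers, 5 rose (median 1.46), with a mean of 7.04 to 7.26 in controls and 8.67 to 9.20 in NICD1. Of 8 fibroblast markers 5 rose, with a mean of 5.97 to 6.17 against 6.50 to 7.29. Their part in the changes of Lgals3, Anxa1, S100a6 and the other members was not tested.

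**Figure D4:**
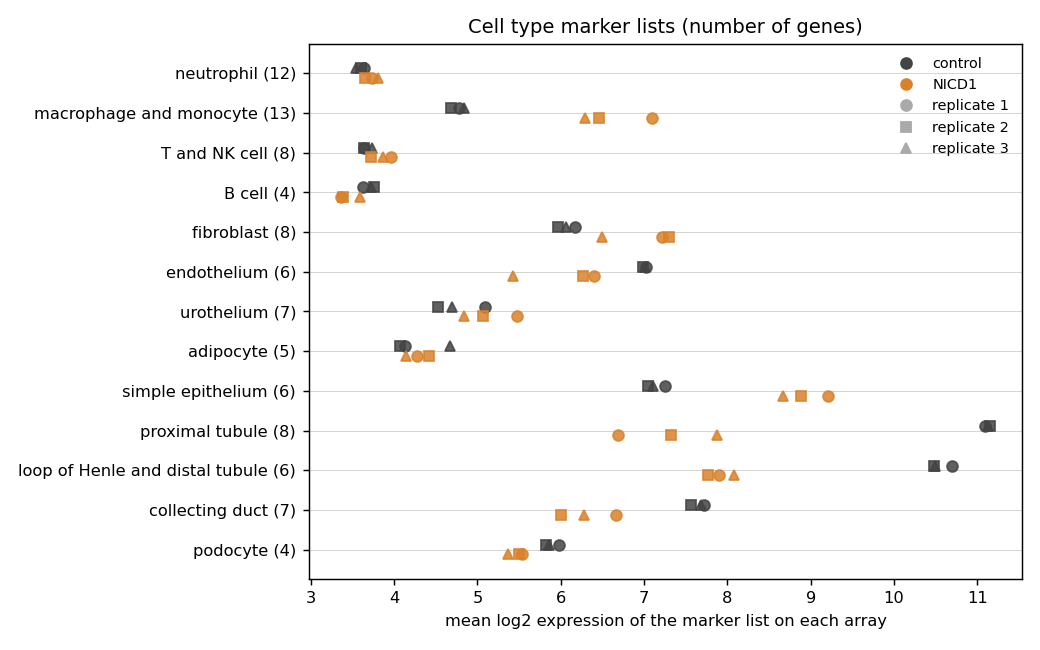
Mean log2 expression of each cell type marker list (horizontal axis) on each array; grey points are controls, orange points NICD1 kidneys, symbols the replicate number, and the number of genes is in brackets. Macrophage, fibroblast, simple epithelial and neutrophil lists are higher on every NICD1 array than on any control. Proximal tubule, distal tubule, collecting duct, endothelial, podocyte and B cell lists are lower on every NICD1 array. The neutrophil gap is small (3.55 to 3.64 against 3.65 to 3.801), and array medians over all genes were also higher in NICD1 (5.38 to 5.41 against 5.26 to 5.29). Gene by gene, the median difference was 0.0996 over the neutrophil list and 0.015 over all genes tested.

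Of 6 endothelial markers 0 rose and 4 fell, with a mean of 6.99 to 7.02 in controls and 5.43 to 6.40 in NICD1. Of 8 T and NK cell markers 2 rose and 0 fell, and of 4 measured B cell markers 0 rose and 1 fell. Of 7 urothelial markers 1 rose, the keratin Krt20, and the uroplakins Upk1a, Upk1b, Upk2, Upk3a and Upk3b did not pass. The loop of Henle and distal tubule markers fell in 5 of 6 cases and rose in 1, and those of the collecting duct fell in 5 of 7 and rose in 1. Of 4 measured podocyte markers 1 rose and 2 fell.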

How the data were processed

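RNA of 3 control and 3 NICD1 whole kidneys was hybridised to Affymetrix arrays. The authors extracted RNA with TRIzol, labelled it with biotin and normalized the arrays by RMA16 in GeneSpring, per the labels' protocols. The deposited values are log2 expression per probe set, from 1.40 to 13.67. RMA brings arrays to a shared distribution and compresses dim genes. The software version and a genome build are not given in the sources used here.

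Of 34760 probe sets, 21640 had 1 gene symbol in the platform annotation, 1321 had several and 11799 none. Each gene took its single-symbol probe set with the highest mean over the 6 arrays, giving 19937 genes, all of which were tested; no filter was applied. All 37 members matched RefSeq by Entrez identifier, with 0 symbols changed. The group difference was fitted with limma 3.58.1 (R 4.3.3; lmFit and eBayes, two-sided) across all genes with Benjamini-Hochberg adjustment; the procedure was tested on simulated data. Every member is named, with up to 3 genes of lowest p from each partner list, Notch1 and S100g; other genes of the lists, such as Ager, Plg and Mgat5, were named after their values were seen. Members and lists were chosen with earlier results of these data known. Promoter windows came from RefSeq (GRCm38.p6). Protein sequences were not used here.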

Additional observations from a re-analysis of the deposited data

How the results depend on the processing

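Across the 14 alternatives the 2 calls of a fall and 14 of the 17 calls of a rise held wherever the gene was tested; Anxa1, S100a14 and Lgals9 lost theirs under some, and no called member changed direction. The count of risen members was 14 to 17 and of fallen members 2 to 3. With the replicate number as a block, 17 members rose and 2 fell, and no call changed; same-numbered arrays did not deviate together (correlations of -0.069, -0.012 and -0.070, and 0 of 3 controls correlated best with their own number). At an adjusted p of 0.01, 14 rose and 2 fell. The count of fallen annexins, 0 as reported, was 1 under quantile normalization, centring and array weights, and 0 to 1 when each array was left out. Leaving out the dimmest 40% of genes removed 13 members and moved the median difference of the rest to 0.86, because fewer dim genes were counted.

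Signs turned only in members that did not pass in either setting. Quantile normalization gave -0.045 for Lgals7, -0.021 for S100a7a and -0.014 for S100a9. Centring gave -0.0088 for Anxa11, -0.080 for Lgals2, -0.093 for Lgals7, -0.0091 for Lgalsl, -0.050 for S100a7a and -0.095 for S100a9, by the shift it subtracts. Array weights gave 0.014 for S100a3, and the cause was not tested. Leaving out arrays gave -0.084 to 0.056 for Anxa10, -0.071 to 0.19 for Lgals2, -0.084 to 0.11 for Lgals7, -0.10 to 0.026 for S100a2, -0.17 to 0.015 for S100a3, -0.0082 to 0.27 for S100a5, -0.048 to 0.17 for S100a7a, -0.030 to 0.012 for S100a8 and -0.029 to 0.086 for S100a9.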
